A study of Mus musculus with 8 samples.

Results

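The RAD6 ubiquitin-conjugating (E2) enzymes, and ubiquitin ligases (E3) that work with them or act on histones, were followed in pachytene spermatocytes. These cells were compared with and without SETDB1, the methyltransferase that writes H3K9me3. The set comprised 7 genes of the 22603 in the expression table, chosen by name. They were the RAD6 E2 genes *Ube2a* and *Ube2b*, and the E3 genes *Rad18*, *Rnf20*, *Rnf40*, *Ubr2* and *Huwe1*. All 7 were present and all 7 passed the filter on low values. *Ube2a* and *Huwe1* are X-linked, and the other 5 are autosomal.

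Ubiquitin is passed from an E1 enzyme to an E2, and from the E2, with the help of an E3 ligase, to its target. RAD6 is the E2 for several chromatin and repair reactions: with RNF20 and RNF40 it ubiquitinates histone H2B in transcribed genes, with RAD18 it ubiquitinates the replication clamp PCNA at stalled forks, and with UBR2 it has been linked to H2A ubiquitination on the XY body of mouse spermatocytes. HUWE1 is a large HECT-type ligase that acts on histones, among other targets, and is needed in mouse germ cells. In pachynema the X and Y chromosomes are transcriptionally silenced in the XY body, so the X-linked homologue *Ube2a* and the autosomal homologue *Ube2b* sit in differently regulated parts of the genome.

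RNA-seq was performed on sorted early-to-mid pachytene cells from 2 *Setdb1* cKO and 2 wildtype samples, with RNA taken from 500 cells. The study checked the purity of the sort on wildtype test cells only, where it was not complete, and gives no purity for cKO cells. The cKO males carried 1 floxed and 1 null *Setdb1* allele (*Setdb1* flox/-), the *Ngn3-Cre* transgene, which drives recombination in spermatogonia, and a Cre-dependent EYFP reporter at *Gt(ROSA)26Sor*, on a C57BL/6J background. They were used at postnatal day 15 or later, whereas the wildtype C57BL/6J males, which had neither the Cre nor the reporter, were used at postnatal day 15. Genotype therefore cannot be told apart from the transgenes or from any difference in age. The sources used here do not say if each sample was a different animal. The p-values cover only how far the samples of a genotype lie apart, a spread that can be technical. In the limma fit the spread of each gene was largely drawn towards that of other genes at a similar level. Values are normalised TPM, a measure of transcript abundance that corrects for transcript length. Read counts were not used here, so the depth behind each value is unknown.

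*Setdb1* itself was at 28.7 and 37.2 TPM in the cKO samples, against 56.9 and 59.3 TPM in the wildtype samples. The groups did not overlap, and the difference did not pass the threshold used throughout (log2 fold change -0.81 ± 0.27 SE, limma with Benjamini-Hochberg adjustment, adjusted p = 0.269; threshold 0.2). A gene-level TPM covers exons outside the deleted part, so it is a partial check of the labels. cKO replicate 1 stood apart, with a correlation across genes of 0.923 with cKO replicate 2 and of 0.876 and 0.886 with the wildtype samples. cKO replicate 2 correlated more closely with the wildtype samples (0.944 and 0.952) than with cKO replicate 1. The wildtype samples correlated with each other at 0.974. Genes that mark pachytene spermatocytes were present in all samples, with a summed level of 2931 and 2910 TPM in cKO against 4804 and 5762 TPM in wildtype, and 3 of 10 were lower (*Adad2*, *Piwil2* and *Sycp2*). Genes that mark spermatids summed to 937 and 47.1 TPM in cKO against 6.05 and 10.2 TPM in wildtype. Of these 11 markers, 4 were higher, among them the X-linked *Akap4*. Over all genes tested, 3.48% were higher and 1.11% lower. Spermatogonial markers summed to 666 and 401 TPM in cKO against 229 and 303 TPM in wildtype (1 of 8 higher). The 1 that was higher is the X-linked *Rhox13*, at 150 and 85.8 TPM in cKO against 23.9 and 24.6 TPM in wildtype. Leydig markers summed to 760 and 108 TPM against 91.6 and 240 TPM, and Sertoli markers to 1182 and 1014 TPM against 1152 and 868 TPM. The part of these differences in the results below was not tested, and in bulk samples fewer cells of a type and less RNA per cell cannot be told apart.

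The RAD6 homologues encode almost the same protein from clearly different messages. This bears on how well reads of one can be told from reads of the other. Over their coding sequences of 456 bases, *Ube2a* and *Ube2b* differed at 102 bases (77.6% identical), and 85 of these differences fell on the third base of a codon. Of 152 codons, 145 encoded the same residue in both. The following stretch of 150 coding bases (coding bases 223 to 372, GRCm38 reference) is shown to make this visible, with the 25 bases that differ in capitals.
*Ube2a*: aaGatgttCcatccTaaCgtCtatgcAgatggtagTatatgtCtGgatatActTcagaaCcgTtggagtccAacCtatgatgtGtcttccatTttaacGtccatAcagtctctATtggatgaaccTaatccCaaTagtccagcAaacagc
*Ube2b*: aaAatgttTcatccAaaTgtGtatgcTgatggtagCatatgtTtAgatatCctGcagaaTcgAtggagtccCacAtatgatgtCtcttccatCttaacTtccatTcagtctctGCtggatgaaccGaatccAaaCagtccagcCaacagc
The capitals are scattered through the stretch, and the longest run identical in both coding sequences was 17 bases. No word of 31 bases in the transcripts of either gene occurred, on either strand, in the transcripts of the other or of any further gene. For *Rad18*, *Rnf20*, *Ubr2* and *Huwe1*, at most 1.07% of such words were shared with other genes. For *Rnf40* the share was 11.9%, mostly with 1700120K04Rik, so part of its reads could have been split between genes.

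Of the 7 members, 2 passed the test, in opposite directions: the E2 gene *Ube2a* was higher in *Setdb1* cKO cells and the E3 gene *Rad18* was lower. The other 5 did not pass. Over all 19462 genes tested, 4.6% passed, 3.48% as higher and 1.11% as lower. For 4 members the lower cKO value exceeded the higher wildtype value (*Ube2a*, *Rnf40*, *Ubr2* and *Huwe1*), where the share over all genes was 26.3%. The opposite held for 1 member (*Rad18*), with a share of 18.1% over all genes. The plot of levels by sample shows all 28 values.

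**Figure D1:**
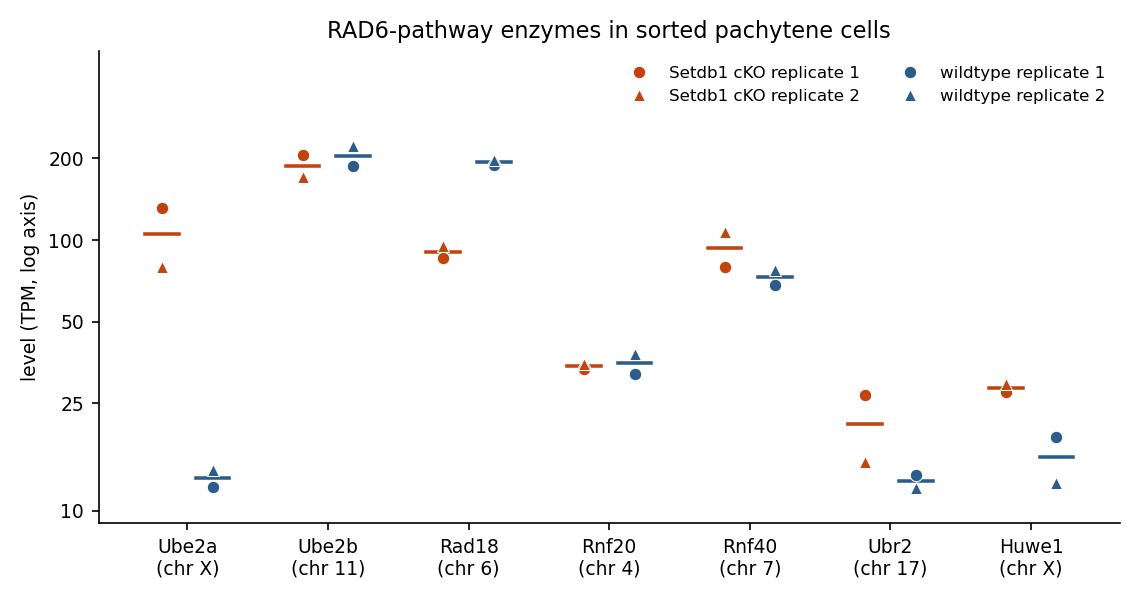
Level of each enzyme gene in each sample, in TPM on a log axis, with *Setdb1* cKO samples in orange and wildtype samples in blue; horizontal lines are means of 2 samples. *Ube2a* lies at 79.3 and 132 TPM in cKO and below 15 TPM in wildtype, and *Rad18* at 85.9 and 94.7 TPM in cKO and above 188 TPM in wildtype.

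Among the E2 genes, *Ube2a* (ENSMUSG00000016308, GRCm38 chromosome X, 36873900 to 36884222, plus strand) had 132 and 79.3 TPM in the cKO samples, against 12.2 and 14.2 TPM in the wildtype samples. Both cKO samples were far above both wildtype samples. The means were 105.6 ± 37.1 TPM in cKO and 13.2 ± 1.39 TPM in wildtype (SD, n = 2 each), a 7.99-fold difference, and the log2 fold change was 2.87 ± 0.33 SE (95% interval 2.08 to 3.65, limma adjusted p = 0.0336). With cKO replicate 1 left out *Ube2a* still passed (log2 fold change 2.50, limma adjusted p = 0.161). With wildtype replicate 1 or 2 left out the log2 fold change was 2.77 or 2.97, but neither *Ube2a* nor any other gene passed (limma adjusted p = 0.926 and 0.674). Over the 10 alternatives that kept all samples its adjusted p ranged between 0.0204 and 0.101.

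*Ube2b* (chromosome 11, minus strand), whose loss makes male mice infertile, had 205 and 171 TPM in cKO, against 188 and 222 TPM in wildtype. The groups overlapped. The log2 fold change was -0.12 ± 0.25 SE with a 95% interval of -0.71 to 0.46 (limma adjusted p = 0.900), so a change of up to 1.38-fold upwards, or to 0.612 of the wildtype level, lies within the interval.

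The makeup of the RAD6 message followed from these values. *Ube2a* made up 39.1% and 31.7% of the summed *Ube2a* and *Ube2b* TPM in cKO, against 6.09% and 6.01% in wildtype. The cKO shares were above both wildtype shares, by 29.3 percentage points on average (exact two-sided permutation test, p = 0.33, the smallest that 2 against 2 samples allow). The summed level of both genes was 337 and 250 TPM in cKO against 201 and 236 TPM in wildtype (exact permutation test, p = 0.33). In every sample *Ube2b* was the more abundant of the 2.

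**Figure D2:**
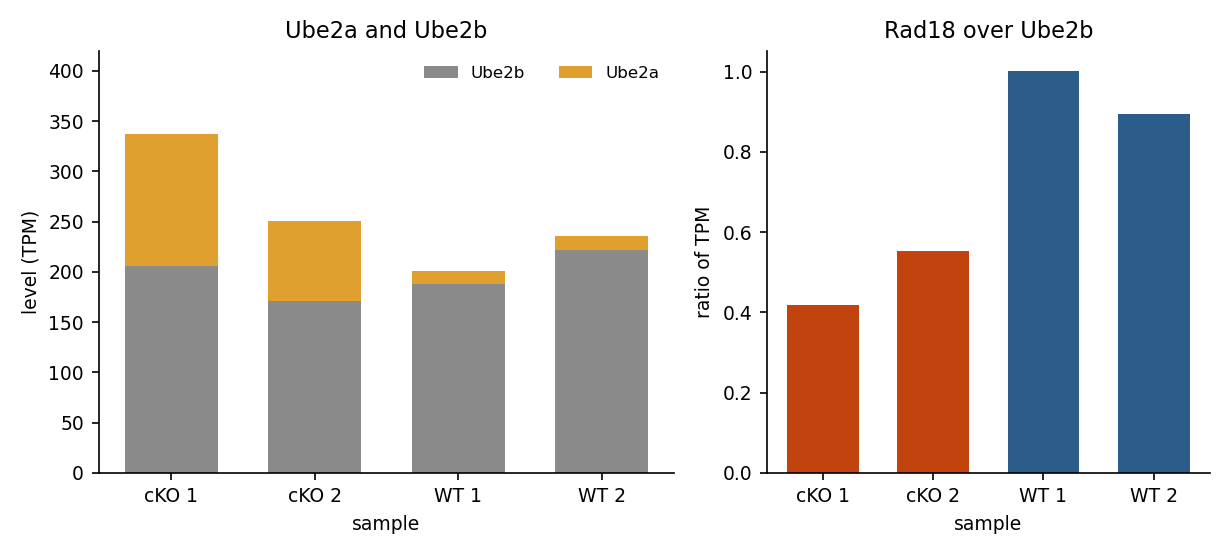
Left, stacked bars of *Ube2b* (grey) and *Ube2a* (yellow) TPM in each sample; right, the ratio of *Rad18* to *Ube2b* TPM. *Ube2a* adds 132 and 79.3 TPM in the cKO samples and 12.2 and 14.2 TPM in the wildtype samples, and the ratio is 0.418 and 0.554 in cKO and 1.00 and 0.893 in wildtype.

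Because *Ube2a* is X-linked, its change was set beside that of other X-linked genes. Of 782 X-linked genes tested, 27.6% were higher in cKO, against 2.32% of 18376 autosomal genes. The median log2 fold change was 1.03 on the X and 0.05 on the autosomes. *Ube2a* had a larger log2 fold change than 89.5% of the X-linked genes tested. Of 193 X-linked genes with a wildtype mean between 6.6 and 26.4 TPM, a range around the level of *Ube2a*, 63 were higher, the median log2 fold change was 1.07 and 8 had a larger log2 fold change than *Ube2a*. This range was chosen after the values were known, and no test was made of the difference between *Ube2a* and the rest of the X.

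**Figure D3:**
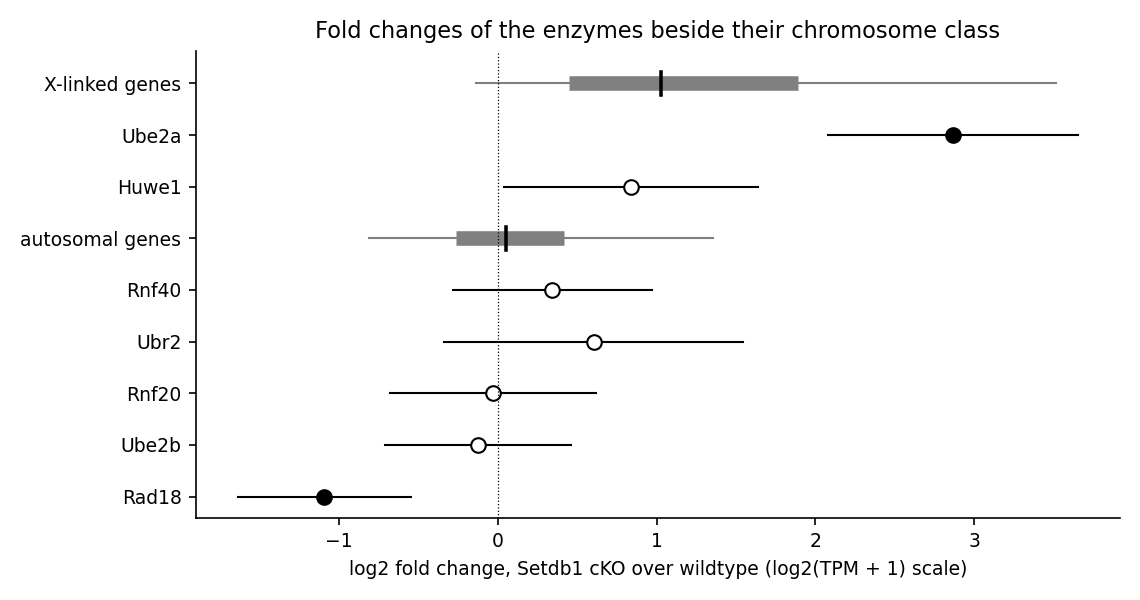
Log2 fold change of *Setdb1* cKO over wildtype for each enzyme gene (points, with 95% intervals; filled where past the threshold) beside the distribution over X-linked and autosomal genes (thick bar, quartiles; thin line, 5th to 95th percentile; tick, median). *Ube2a* at 2.87 lies to the right of the X-linked quartiles, *Huwe1* at 0.84 lies within them, and *Rad18* at -1.09 lies to the left of the autosomal quartiles.

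The 10 tested genes nearest to *Ube2a*, 5 on each side, all had log2 fold changes above 0. These lay between 0.31 and 1.50, with a median of 0.65. Over all X-linked genes tested, 91.4% had a log2 fold change above 0. None of the 10 neighbours passed the threshold. One of them, C330007P06Rik, overlaps *Ube2a* on the opposite strand. It had 13.4 and 7.99 TPM in cKO, against 9.47 and 7.05 TPM in wildtype, and its groups overlapped. The transcripts of C330007P06Rik and *Ube2a* shared no word of 31 bases on either strand.

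**Figure D4:**
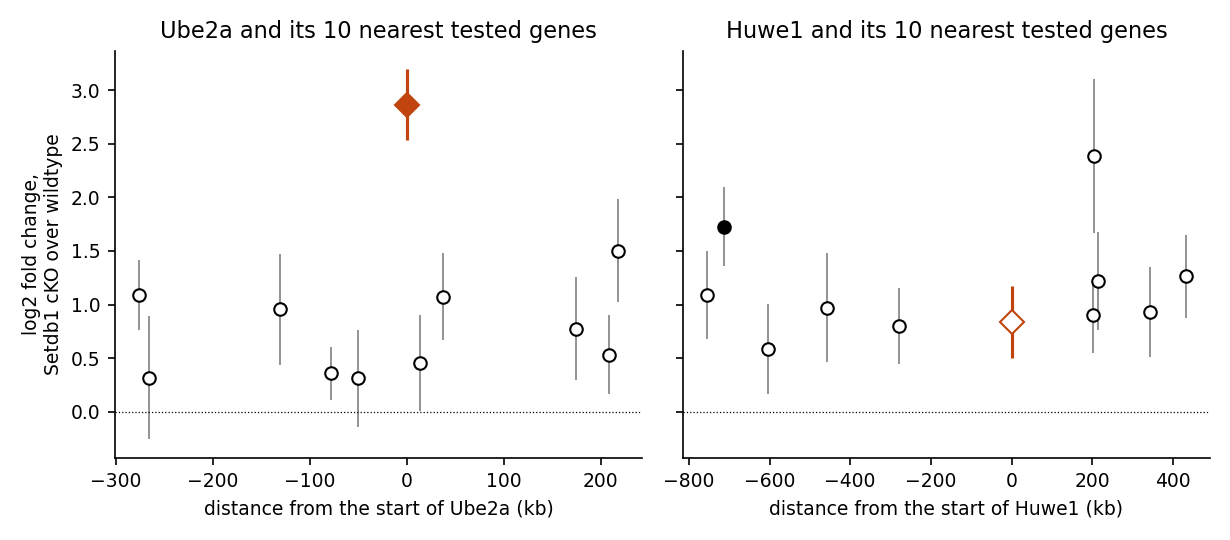
Log2 fold change (± SE) of *Ube2a* and *Huwe1* (orange diamonds) and of the 10 nearest tested genes of each, against the distance of their start from that of the member in kb; filled symbols passed the threshold. *Ube2a* at 2.87 lies above all its neighbours (0.31 to 1.50), whereas *Huwe1* at 0.84 lies among its own (0.59 to 2.38).

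The profiles nearest to that of *Ube2a* over the 4 samples, by Euclidean distance on the log2(TPM + 1) scale, were those of the autosomal genes *Tekt4*, *Glipr1l1* and *Lkaaear1* (distances 0.448, 0.587 and 0.659). Since these genes were picked by the same 4 values, their rise in cKO follows from the choice. *Tekt4* encodes a tektin of the sperm flagellum. It had 142 and 77.4 TPM in cKO, against 9.79 and 17.9 TPM in wildtype (log2 fold change 2.89, limma adjusted p = 0.0598). The level of *Ube2a* was 9.98 times the wildtype mean in cKO replicate 1 and 6.01 times in cKO replicate 2. On the log2(TPM + 1) scale *Ube2a* lay 3.23 and 2.50 above the wildtype mean in these samples. The median over the 11 spermatid markers was 5.94 and 1.28. What part spermatid RNA has in the level of *Ube2a* was not tested.

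Of the E3 genes, *Rad18* (ENSMUSG00000030254, chromosome 6, 112619850 to 112696686, minus strand) was the only member to pass the test as lower. It had 85.9 and 94.7 TPM in cKO, against 189 and 198 TPM in wildtype. The groups were well separated, with means of 90.3 ± 6.26 TPM in cKO and 193.4 ± 6.68 TPM in wildtype (SD, n = 2 each), so that the cKO mean was 46.7% of the wildtype mean. The log2 fold change was -1.09 ± 0.23 SE (95% interval -1.64 to -0.55, limma adjusted p = 0.124). Among autosomal genes 1.16% were lower. *Rad18* passed with either cKO replicate left out (limma adjusted p = 0.191 and 0.0635) and did not with wildtype replicate 1 or 2 left out (0.926 and 0.879). It also did not pass without the trend of the spread on expression (0.256, the highest of the 10 alternatives that kept all samples, whose lowest was 0.107).

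*Rad18* and *Ube2b* were at about the same level in wildtype and not in cKO. Their ratio was 0.418 and 0.554 in cKO against 1.00 and 0.893 in wildtype (exact two-sided permutation test, p = 0.33). Against the sum of *Ube2a* and *Ube2b* the ratio was 0.255 and 0.378 in cKO and 0.941 and 0.839 in wildtype (exact permutation test, p = 0.33). The fall of *Rad18* stood beside that of the pachytene markers *Adad2*, *Piwil2* and *Sycp2*, and their part in it was not tested. The nearest profiles to *Rad18* were *Ppid*, *Sirt2* and *Dtx3* (distances 0.139, 0.205 and 0.249), all 3 lower in cKO. They were picked by nearness over the same 4 samples, so their direction follows from the choice. None of the 3 passed without the trend (limma adjusted p = 0.269, 0.274 and 0.345). *Sirt2*, a protein deacetylase, had 79.4 and 105 TPM in cKO against 189 and 210 TPM in wildtype. Without cKO replicate 1, *Sirt2*, *Dtx3* and the marker *Sycp2* did not pass (limma adjusted p = 0.218, 0.259 and 0.243).

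The H2B ligase genes *Rnf20* and *Rnf40*, whose products act as one complex, did not pass. *Rnf20* (chromosome 4) had 33.5 and 34.9 TPM in cKO, against 32.1 and 38.0 TPM in wildtype. Its cKO values lay between the wildtype values (log2 fold change -0.03, 95% interval -0.68 to 0.62, limma adjusted p = 0.978). *Rnf40* (chromosome 7) had 79.6 and 107 TPM in cKO, against 68.2 and 77.3 TPM in wildtype. The *Rnf40* groups were just separated, and the log2 fold change of 0.34 had a 95% interval of -0.28 to 0.97 (limma adjusted p = 0.644). The ratio of *Rnf20* to *Rnf40* was 0.421 and 0.325 in cKO against 0.470 and 0.492 in wildtype (exact two-sided permutation test, p = 0.33).

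*Ubr2* (chromosome 17) had 26.7 and 15.1 TPM in cKO, against 13.6 and 12.2 TPM in wildtype. Both cKO values were the higher ones, but they were far apart, and the log2 fold change of 0.60 had a 95% interval of -0.34 to 1.55 (limma adjusted p = 0.581). With cKO replicate 2 left out it passed (log2 fold change 1.00, limma adjusted p = 0.167), which rests on cKO replicate 1, the sample that stood apart. Over the 4 fits that left out a sample its adjusted p ranged between 0.167 and 0.937.

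*Huwe1* (ENSMUSG00000025261, chromosome X, 151800807 to 151935417, plus strand) had 27.6 and 29.3 TPM in cKO, against 18.8 and 12.7 TPM in wildtype. The groups did not overlap, and the log2 fold change of 0.84 ± 0.34 SE (95% interval 0.04 to 1.64) did not pass (limma adjusted p = 0.350, unadjusted p = 0.0425). Of 164 X-linked genes with a wildtype mean between 7.87 and 31.5 TPM, 54 were higher, the median log2 fold change was 1.07, and 103 had a larger log2 fold change than *Huwe1*. Its 10 nearest tested genes all had log2 fold changes above 0 (0.59 to 2.38, median 1.03), as did 91.4% of X-linked genes tested. One of the 10 passed, *Tsr2*, a ribosome maturation factor, at 56.6 and 33.9 TPM in cKO against 10.9 and 14.4 TPM in wildtype. *Tsr2* did not pass without cKO replicate 1 (limma adjusted p = 0.221) or without the trend (0.201). The nearest profiles to *Huwe1* were *Cdk2ap1*, *Rabggtb* and *Tmem94* (distances 0.238, 0.319 and 0.331), none past the threshold. These too were picked by nearness over the same samples.

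Among the 10 nearest tested genes of each of the 5 autosomal members, 2 in all passed, both as higher, where 2.32% of autosomal genes were higher. *Bcl7c*, 72.7 kb from *Rnf40* by their starts, had 78.4 and 72.1 TPM in cKO against 11.01 and 26.0 TPM in wildtype, and *Toporsl*, 2964 kb from *Rnf20*, had 52.7 and 97.7 TPM in cKO against 23.2 and 22.6 TPM in wildtype. *Bcl7c* did not pass without cKO replicate 1 (limma adjusted p = 0.240), and *Toporsl* did not under quantile normalisation (0.203). Neither passed without the trend (0.201 and 0.232). None passed around *Ube2b*, *Rad18* or *Ubr2*.

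The order of the members by mean level differed between the genotypes. In cKO the means ran *Ube2b*, *Ube2a*, *Rnf40*, *Rad18*, *Rnf20*, *Huwe1* and *Ubr2*, where the ranges of *Ube2a* and *Rnf40* overlapped, as did those of *Rnf40* and *Rad18*. In wildtype they ran *Ube2b*, *Rad18*, *Rnf40*, *Rnf20*, *Huwe1*, *Ube2a* and *Ubr2*. There the ranges overlapped between *Ube2b* and *Rad18*, between *Huwe1* and *Ube2a*, and between *Ube2a* and *Ubr2*. *Ube2a* was thus second in cKO and sixth in wildtype. The summed TPM of all 7 members was 590 and 532 in cKO against 522 and 574 in wildtype, with overlapping groups (exact permutation test, p = 0.67).

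Genes with related roles were counted in the same fit. Among 35 other E2 genes, 1 was lower (*Ube2t*, the E2 of the Fanconi anaemia pathway) and 0 were higher. Over all genes 1.11% were lower and 3.48% higher. The median log2 fold change of these E2 genes was 0.08, the same as over all genes. *Ube2t* had 124 and 179 TPM in cKO, against 284 and 369 TPM in wildtype (log2 fold change -1.11, limma adjusted p = 0.176). *Ube2t* did not pass without cKO replicate 1 (limma adjusted p = 0.294) or without the trend (0.314).

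Among 15 cofactors of H2B ubiquitination and of the histone methylation that depends on it, 0 passed, and the median log2 fold change was -0.04. The smallest p belonged to *Dot1l*, the H3K79 methyltransferase. It had 48.9 and 58.1 TPM in cKO, against 29.6 and 32.2 TPM in wildtype (limma adjusted p = 0.285). The next was *Wdr5*, a subunit of H3K4 methyltransferase complexes, at 65.4 and 44.3 TPM in cKO against 70.6 and 94.7 TPM in wildtype (limma adjusted p = 0.459).

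Of 13 histone deubiquitinase genes and their partners, 1 was higher, the X-linked *Usp51*, which encodes an H2A deubiquitinase. The median log2 fold change of this list was 0.32, and 11 of the 13 lay above 0, as did 56.1% of all genes. *Usp51* had 4.08 and 2.27 TPM in cKO and 0 and 0.108 TPM in wildtype, where it was barely detected (limma adjusted p = 0.113). Of X-linked genes, 27.6% were higher. In the RNF8 pathway, which ubiquitinates histones at DNA breaks and acts on the XY body, 2 of 12 genes were lower and 0 were higher. All 12 are autosomal, and 1.16% of autosomal genes were lower. *Rnf8*, the E3 ligase of this pathway, had 29.6 and 27.5 TPM in cKO, against 55.9 and 68.5 TPM in wildtype (log2 fold change -1.09, limma adjusted p = 0.161). *Mdc1*, the γH2AX-binding adaptor that recruits RNF8, had 48.8 and 79.2 TPM in cKO, against 148 and 136 TPM in wildtype (log2 fold change -1.18, limma adjusted p = 0.168). Neither *Rnf8* nor *Mdc1* passed without cKO replicate 1 (limma adjusted p = 0.204 and 0.229) or without the trend (0.269 and 0.305). The other 10 genes of this pathway did not pass, and its median log2 fold change was -0.08.

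None of the 14 genes on a list for RAD18, PCNA and translesion synthesis passed (median log2 fold change -0.10). The smallest p belonged to *Slf1*, a RAD18-binding factor, at 43.7 and 42.5 TPM in cKO against 69.5 and 78.6 TPM in wildtype (limma adjusted p = 0.256), and to *Rev1*, a translesion polymerase, at 20.0 and 28.4 TPM against 45.6 and 42.1 TPM (limma adjusted p = 0.296). None of 11 genes on the list of UBR and N-degron genes and their partners passed (median 0.05). *Tex19.1*, whose product binds UBR2 in mouse germ cells, had 148 and 79.7 TPM in cKO against 47.3 and 72.7 TPM in wildtype (limma adjusted p = 0.370), and *Ubr3* had 10.8 and 19.3 TPM against 8.07 and 9.06 TPM (0.558). Of 24 further HECT ligase genes 0 passed (median 0.08), the smallest p belonging to *Herc6* and *Nedd4l* (limma adjusted p = 0.303 and 0.350).

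Among 18 X-linked genes of the ubiquitin system other than the members, 6 were higher and 0 lower, with a median log2 fold change of 1.21. Over all 782 X-linked genes 27.6% were higher and the median was 1.03, so the share in this list was close to that of its chromosome. *Mid1*, a TRIM-type E3 ligase, had 89.0 and 72.1 TPM in cKO, against 23.9 and 14.8 TPM in wildtype (log2 fold change 2.03, limma adjusted p = 0.0683). *Usp11*, a deubiquitinase, had 33.7 and 25.5 TPM in cKO, against 8.64 and 6.03 TPM in wildtype (log2 fold change 1.88, limma adjusted p = 0.114). *Klhl15*, a cullin adaptor, had 41.2 and 20.3 TPM in cKO against 9.16 and 5.08 TPM in wildtype (limma adjusted p = 0.167). *Usp51*, *Rlim* and *Xiap* were the others. Without cKO replicate 1, 2 of the 18 passed (*Mid1* and *Usp51*, limma adjusted p = 0.187 and 0.174), and without cKO replicate 2, 13 did.

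**Figure D5:**
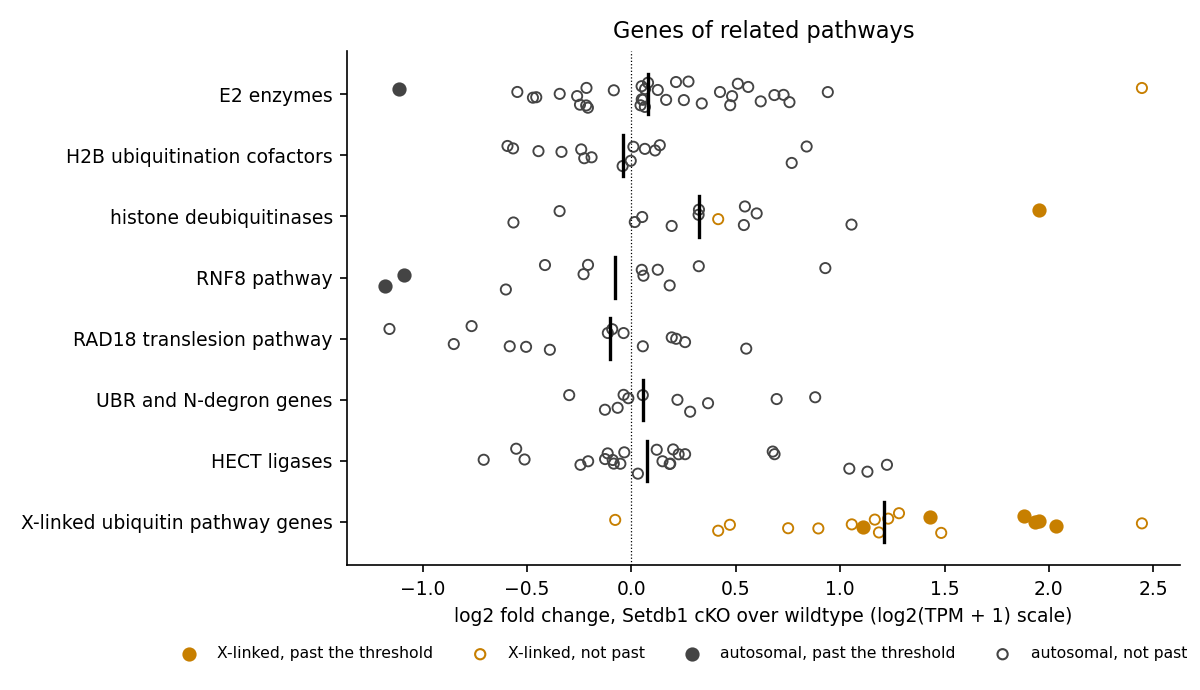
Log2 fold change of each gene in the related lists, *Setdb1* cKO over wildtype; X-linked genes in orange and autosomal genes in grey, filled where past the threshold, with a black line at the median of each list. The medians of the first 7 lists lie between -0.10 and 0.32, and that of the X-linked genes lies at 1.21.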

How the data were processed

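Early-to-mid pachytene cells were sorted by the study, amplified with Smart-seq2 and sequenced. The authors quantified transcripts with kallisto against GRCm38 and normalised them with sleuth. The deposited values are TPM per gene and sample, treated as a signal because the columns sum to between 942186 and 1109725 and not to a common total. No counts were used, so depth and counting error are unknown. The table also holds the authors' p-values, q-values, effect estimates and genotype means, which were not used. ChIP-seq samples were not analysed here.

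Of the 22603 genes, the 19462 that are protein-coding and exceed 0.1 TPM on average in either genotype were compared on the log2(TPM + 1) scale. The fit was made in R 4.3.3 by limma 3.58.1, with lmFit and then eBayes with a trend. Fold changes are on that scale, which understates the change of low genes. Benjamini-Hochberg adjustment ran over all genes, with a threshold of 0.2, as in the methods of the study. Single values per sample were compared by an exact permutation test with scipy 1.17.1, as 6 sums, shares and ratios; none can pass at 2 against 2 samples. The code was tested on simulated data under 2 noise models, the second tried after the first had given few calls. Under both, the median fitted change was close to the simulated one, and only the size of the fitted changes was required to hold. A bar on the number of changes called was set, missed, lowered and then removed. Power was low under a single pooled spread and incomplete under the other model, so a gene that did not pass may still have changed. Positions and coding sequences came from the GRCm38 annotation.

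The members, gene lists and tests were chosen with earlier results of these data known. Named genes were the members, *Setdb1*, up to 4 genes past the threshold from each list (otherwise the 2 with the smallest p), the 3 nearest profiles, and neighbours past the threshold. The level-matched X-linked genes, the shared words and the printed stretch were added after values were seen. So were 4 of the 6 sums and ratios (all but the *Ube2a* share and the *Rnf20* to *Rnf40* ratio). The same holds for C330007P06Rik, *Rlim*, *Xiap* and the pachytene, spermatogonial and spermatid markers named. Alternatives were another pseudocount, filter, scaling or variance model, leaving out each sample, and a replicate block. Plots were made in Python 3.11.15 using matplotlib 3.10.9.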

Additional observations from a re-analysis of the deposited data

How the results depend on the processing

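With all samples kept, *Ube2a* passed in all 10 alternatives and *Rad18* in 9, and no member changed direction. Leaving out a sample turned the signs of *Ube2b* and *Rnf20*, neither of which passed in any fit. Quantile normalisation moved the median log2 fold change of all genes to -0.11, against 0.08 as reported.

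Without the trend, 1 member, 448 genes, 0 E2 genes, 0 RNF8 pathway genes and 3 X-linked ubiquitin genes passed. With quantile normalisation 1 RNF8 pathway gene and 3 X-linked ubiquitin genes passed. With a pseudocount of 0.1, 2 E2 genes and 2 deubiquitinase genes passed, and 2 deubiquitinase genes also passed with a pseudocount of 0.5 or a mean above 1 TPM. The cause of these differences was not tested.

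Leaving out each sample in turn gave between 0 and 3 members, 0 and 3837 genes over all, 0 and 3 E2 genes, 0 and 1 H2B cofactors, 0 and 6 deubiquitinase genes, 0 and 2 RNF8 pathway genes, 0 and 3 translesion genes, 0 and 1 N-degron genes, 0 and 2 HECT genes and 0 and 13 X-linked ubiquitin genes. The highest of each came without cKO replicate 2. With wildtype replicate 1 or 2 left out limma called 0 genes, while 726 and 815 genes were higher and 258 and 267 lower at an unadjusted p under 0.05. In these fits the lone sample is assumed to vary like the other genotype. *Setdb1* passed without cKO replicate 2 (limma adjusted p = 0.101). The *Ube2a* share and the *Rnf20* to *Rnf40* ratio kept their direction.

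The replicate numbers in the labels are not stated to mark a shared batch, and same-numbered samples deviated with a correlation of 0.03 across genes. With a replicate block 1409 genes, 2 E2 genes and 10 X-linked ubiquitin genes passed, and *Ube2a* and *Rad18* kept their calls.

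With 2 samples a genotype and adjustment over all genes, *Huwe1* and *Ubr2* did not pass. Without read counts the counting error of each value is unknown.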
